A study of Homo sapiens with 9 samples.

Results

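Polycomb repressive complex 2 (PRC2) was followed through 10 of its genes in 9 RNA-seq libraries of K562, a human erythroleukaemia line derived from chronic myeloid leukaemia. The 10 symbols were EZH2, named because its RNA is a reported splicing target of mutant SRSF2, together with the core subunits and partners of its complex. All 10 were found among the 63677 Ensembl gene IDs of the count tables, and all 10 were among the 18173 genes that passed a filter on low counts. The libraries were 4 CRISPR clones carrying the P95H substitution in the splicing factor SRSF2 (P9, P15, P22 and P38), 1 culture of the parental K562 cells and 4 CRISPR clones with wild-type SRSF2 (W19, W33, W36 and W42). A clone is represented by a single library, and the spread behind every p-value is that between clones. The zygosity of the substitution and the number of editing events behind each set of clones are not in the labels, and all groups share the rearranged K562 genome.

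PRC2 places methyl groups on lysine 27 of histone H3, a mark of repressed chromatin. EZH2 or its slower paralogue EZH1 carries the catalytic domain, EED reads the mark and switches the enzyme on, SUZ12 holds the complex together, and RBBP4 and RBBP7 bind histones. JARID2 and AEBP2 define one form of the complex, whereas PHF19 and MTF2, both Polycomb-like proteins, define the other. Loss of PRC2 genes is frequent in myeloid neoplasms, and SRSF2 P95H has been reported to favour inclusion of an EZH2 exon that carries a premature stop codon, which exposes the transcript to nonsense-mediated decay.

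An EZH2 exon of that kind is shown first, because such an exon is the reported link between the mutation and the complex. It was picked from the annotation alone, and whether it is the reported exon was not checked. In the GENCODE release 29 transcripts (GRCh38), 1 exon of EZH2 occurs in the 2 transcripts annotated as nonsense-mediated decay and in none of the 6 protein-coding ones. It is 82 bases long and lies on the minus strand at chr7:148818978-148819059. The P95H protein is known for a shift of preference from GGNG to CCNG in exons. The exon held 2 CCNG and 0 GGNG, and among 1444 internal exons of the same length 75.4% held a CCNG and 63.8% a GGNG, both read on the RNA strand. Its first and last 30 bases follow, with the annotated stop codon, which 1 of the 2 transcripts reaches after 18 coding bases of this exon, in capitals in the first line and a CCNG in capitals in the second.
EZH2 exon, first bases (chr7:148819030-148819059, minus strand): ccactcctacctaggaacTAAatgggtata
EZH2 exon, last bases (chr7:148818978-148819007, minus strand): agaagattcattgaatggcaCCTGcagaag
The deposited values are read counts per gene, so they hold the total EZH2 RNA and do not separate transcripts with this exon from those without it.

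The promoters of the members were searched for an element that their choice did not use. E2F factors, which drive genes of the cell cycle and are known regulators of EZH2, bind 8-base elements, and the letters TTTCCCGC, TTTCGCGC, TTTGCCGC and TTTGGCGC were searched on both strands in windows running 250 bases before to 50 bases after each start (RefSeq, GRCh38.p14). A match was found in 6 of the 10 members (60.0%), against 3.99% of all 27305 genes with a window and 6.45% of the 10272 tested genes matched by symbol. The 30 bases around the match are given on the strand of the gene, with the element in capitals.
EZH2 (chr7:148884272-148884301, minus strand): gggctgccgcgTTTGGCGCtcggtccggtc
EZH1 (chr17:42745137-42745166, minus strand): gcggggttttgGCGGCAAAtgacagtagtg
SUZ12 (chr17:31936807-31936836, plus strand): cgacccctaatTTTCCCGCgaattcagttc
AEBP2 (chr12:19440438-19440467, plus strand): caaggcgacgtTTTGCCGCgatccccctgc
PHF19 (chr9:120877322-120877351, minus strand): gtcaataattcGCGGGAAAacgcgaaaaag
MTF2 (chr1:93079277-93079306, plus strand): accggcagtccGCGGGAAAccaaaatggcg
For EED, RBBP4, RBBP7 and JARID2 these letters are not in the window. A match is a run of letters and was not tested for binding.

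The libraries held 24546255 to 35477328 reads in genes, and the lowest count of any member in any library was 304 (AEBP2 in W33). Levels are given as CPM, the reads of a gene scaled to a common total of gene reads after TMM normalization. A count of 3 corresponded to 0.0846 to 0.122 CPM, far under every member. Clone W33 stands apart from the other 3 WT clones, from which it differed at 2448 genes by edgeR with all WT clones, and at 682, 0 and 0 genes when W19, W36 or W42 was left out, so the difference of each member between P95H and WT clones is given with and without it. SRSF2 itself had 501 ± 64.2 CPM in P95H clones, 516 CPM in parental cells and 489 ± 28.6 CPM in WT clones (SD, n = 4 each group of clones, log2 difference 0.04, adjusted p = 0.917). Its level does not check the substitution, which gene counts cannot show. All 10 K562 markers on a list of erythroid genes were expressed, among them HBG2 at 1121 to 3009 CPM and GATA1 at 214 to 426 CPM. Of 20 markers of other cell types, MS4A1 and PECAM1 had no count in any library, whereas the epithelial keratin KRT8 reached 753 CPM. The summed level of these 20 markers was 427 to 749 CPM in P95H clones, 845 CPM in parental cells and 742 to 1326 CPM in WT clones. Most of it came from keratins found in every library, the parental cells included. They were KRT8 (193 to 753 CPM), KRT18 (131 to 377 CPM) and KRT19 (65.6 to 131 CPM). The highest of the other markers, LYZ, reached 38.5 CPM. The sum is thus mainly a keratin level and does not show cells of another type. The part of these markers in the values below was not tested.

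No PRC2 gene differed between P95H and WT clones beyond the spread between clones. By edgeR's quasi-likelihood test, with p-values adjusted by Benjamini-Hochberg across every gene tested, 0 of the 10 members passed an adjusted p of 0.05. The background was also 0 of 18173 genes, or 0%. At an unadjusted p under 0.05 edgeR gave 0 members, against 11.7% of all genes. DESeq2 called 1.44% of genes and limma-voom 0.187%, and neither called a member. At an unadjusted p under 0.05 limma-voom gave 1 member, EZH2, beside 3156 of the 18173 genes. Its log2 difference by limma-voom was -0.23 (unadjusted p = 0.0121, adjusted p = 0.167). The smallest adjusted p among the members by edgeR was 0.571, for EZH2. Of the members, 5 had a fitted difference above 0 and 5 below, with a median log2 difference of 0.03 beside 0.01 over all genes tested. In bulk RNA, fewer cells of a type and less RNA per cell cannot be told apart.

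EZH2, the main methyltransferase, had 137, 157, 162 and 162 CPM in P9, P15, P22 and P38, 170 CPM in parental cells, and 178, 152, 183 and 178 CPM in W19, W33, W36 and W42. One P95H clone, P9, was below every WT clone, and the other P95H clones were above W33 but below the remaining WT clones. The means were 154 ± 12.0 CPM in P95H clones and 173 ± 14.3 CPM in WT clones (SD, n = 4 each). The log2 difference was -0.16 (SE 0.11, 95% confidence interval -0.39 to 0.08, adjusted p = 0.571 by edgeR), or -10.5% with an interval of -23.9% to 5.40%. Without W33 the WT mean was 180 ± 3.28 CPM (n = 3) and all 4 P95H clones lay below every WT clone. Its log2 difference was then -0.22 (unadjusted p = 0.0266, adjusted p = 0.336). EZH2 was the only member with no overlap in that set, where 14.6% of all genes did not overlap and 7.30% did so with P95H lower. With all 8 clones 0 members were free of overlap, against 8.48% of all genes.

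EZH1, the paralogue that maintains the mark in cells that divide little, had an SD of 15.4 CPM between P95H clones and 7.80 CPM between WT clones, a difference in spread that was not tested. It had 40.5, 68.1, 33.8 and 55.5 CPM in P9, P15, P22 and P38, 45.4 CPM in parental cells, and 48.2, 32.6, 48.4 and 48.2 CPM in W19, W33, W36 and W42. P15 and P38 were above all WT clones, P9 and P22 were within their range, and W33 was the lowest library of the 9. EZH1 differed by a log2 of 0.16 (SE 0.22, interval -0.34 to 0.66, adjusted p = 0.804 by edgeR). Without W33 the WT clones stood at 48.2 ± 0.112 CPM (SD, n = 3) and the log2 difference was 0.04. It was -0.03 without P15 and 0.30 without P22. Per kilobase of exon, the EZH1 level as a share of the EZH2 level was 0.192, 0.281, 0.135 and 0.222 in P9, P15, P22 and P38, 0.172 in parental cells, and 0.175, 0.139, 0.171 and 0.175 in W19, W33, W36 and W42. EZH2 was thus the more abundant methyltransferase RNA in every library.

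**Figure D1:**
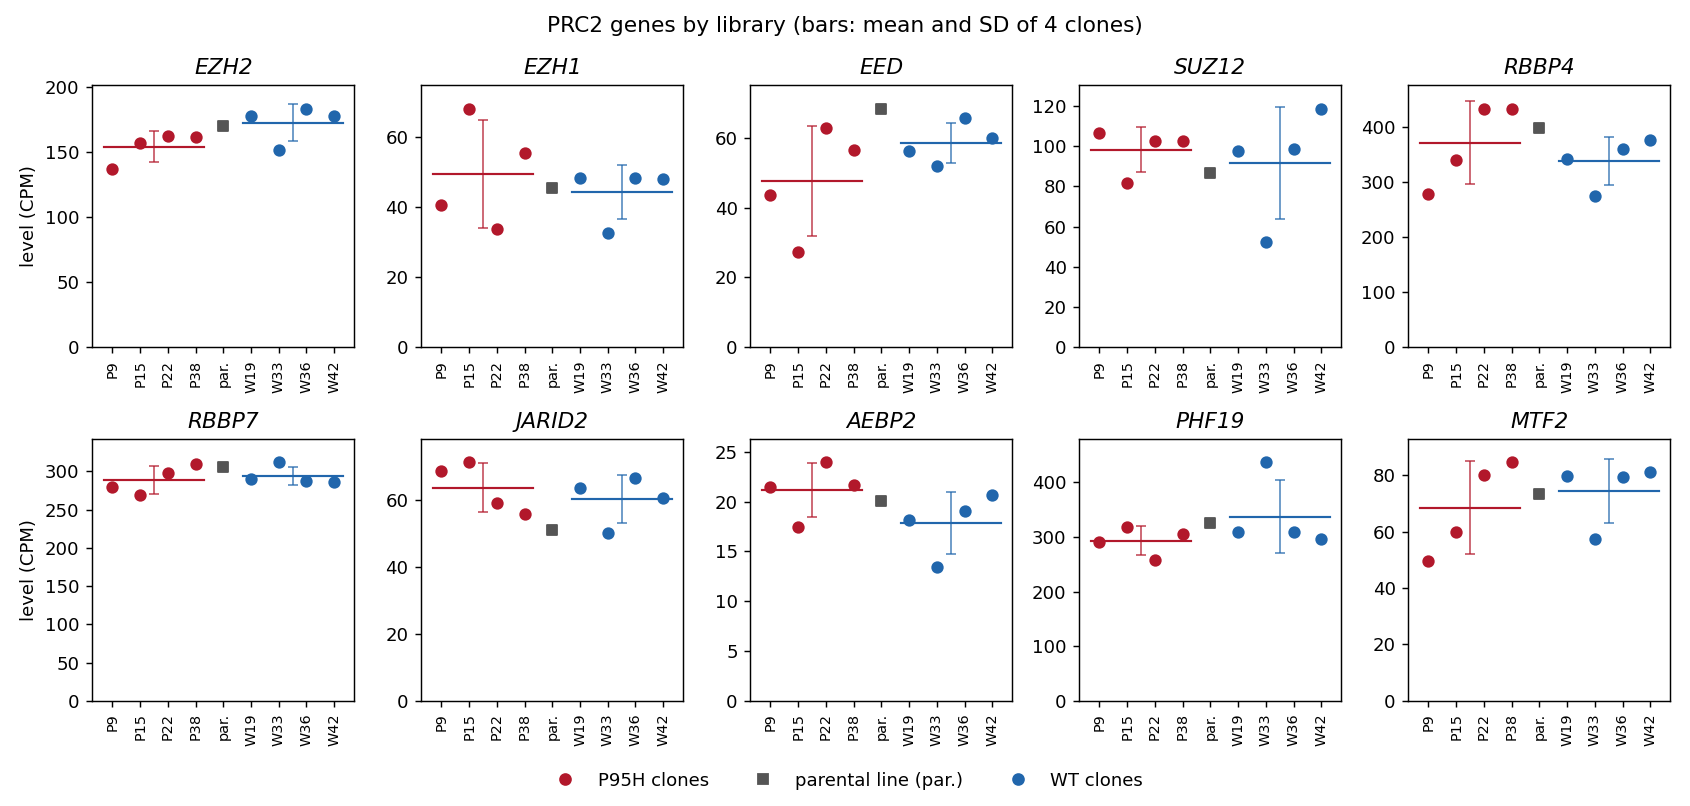
Level of each PRC2 gene in every library, in CPM after TMM scaling, with 1 panel per gene and groups in the order P95H clones, parental culture and WT clones. Each point is 1 library, the bars show the group mean ± SD of the 4 clones, and the point of W33 is set off from the other WT clones most clearly for SUZ12 (52.3 CPM) and PHF19 (437 CPM).

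EED, the reader of the mark, had 43.5, 27.2, 63.0 and 56.5 CPM in P9, P15, P22 and P38, 68.3 CPM in parental cells, and 56.3, 51.9, 65.6 and 60.1 CPM in W19, W33, W36 and W42. P9 and P15 were below all WT clones, and P22 and P38 were within the WT range. The means were 47.5 ± 15.8 CPM in P95H clones and 58.5 ± 5.79 CPM in WT clones (SD, n = 4 each, log2 difference -0.30, SE 0.23, interval -0.80 to 0.21, adjusted p = 0.620 by edgeR). P15 carried much of that difference, which was -0.10 without it (adjusted p = 0.803 by edgeR). It was -0.35 without W33 and -0.46 without P22.

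SUZ12, the scaffold subunit, had 106, 81.8, 102 and 102 CPM in P9, P15, P22 and P38, 86.6 CPM in parental cells, and 97.4, 52.3, 98.4 and 119 CPM in W19, W33, W36 and W42. W33 was the lowest and W42 the highest library, so the P95H range lay inside the WT range. For SUZ12 the log2 difference was 0.10 (SE 0.22, interval -0.39 to 0.59, adjusted p = 0.883 by edgeR), and without W33 it was -0.09. The difference was 0.06 without P9, 0.18 without P15 and 0.25 without W42. SUZ12 has a near-identical pseudogene copy, SUZ12P1, counted at 27.5 to 33.98 CPM. It reached 63.8% of the SUZ12 level in W33 (33.3 against 52.3 CPM). In W33 SUZ12P1 had a log2 difference of 0.21 from the other WT clones. Reads without a unique alignment were kept out of the gene counts, and made up 5.06% to 6.06% of the reads listed per library. How many of them match SUZ12 and its copy is not given, so the SUZ12 level is uncertain to that extent.

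RBBP4 and RBBP7, histone-binding proteins that also serve in other chromatin complexes, were among the 4 members with the highest level per kilobase of exon. RBBP4 had 279, 342, 434 and 434 CPM in P9, P15, P22 and P38, 400 CPM in parental cells, and 342, 276, 361 and 376 CPM in W19, W33, W36 and W42. P22 and P38 exceeded every WT clone, P15 lay within the WT range, and P9 and W33 were the 2 lowest. RBBP4 gave a log2 difference of 0.14 (SE 0.16, interval -0.23 to 0.50, adjusted p = 0.766 by edgeR). It was 0.05 without W33, 0.05 without either P22 or P38, and 0.25 without P9. RBBP4 shares 18.0% of its exonic bases with SYNC on the other strand (112 to 193 CPM), and the kit does not mark strand, so reads there cannot be told apart. Its processed copies RBBP4P1 (26.4 to 77.9 CPM) and RBBP4P2 (10.8 to 36.4 CPM) also took reads.

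RBBP7 had the narrowest confidence interval of the members. It had 280, 269, 298 and 310 CPM in P9, P15, P22 and P38, 306 CPM in parental cells, and 290, 312, 288 and 286 CPM in W19, W33, W36 and W42. The groups overlapped, with means of 289 ± 18.1 CPM in P95H clones and 294 ± 12.1 CPM in WT clones (SD, n = 4 each). The log2 difference was -0.02 (SE 0.09, interval -0.22 to 0.18, adjusted p = 0.946 by edgeR), and without W33 it was 0.0072.

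Of the partners that define the JARID2 and AEBP2 form, JARID2, which helps recruit and stimulate the enzyme, had 68.8, 71.4, 59.2 and 55.9 CPM in P9, P15, P22 and P38, 51.3 CPM in parental cells, and 63.9, 50.3, 66.6 and 60.9 CPM in W19, W33, W36 and W42. P9 and P15 were above all WT clones, and the other P95H clones were within the WT range. Its log2 difference was 0.08 (SE 0.13, interval -0.21 to 0.37, adjusted p = 0.825 by edgeR), and without W33 it was 0.0026.

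AEBP2, a zinc finger cofactor of the same form, had the lowest level per kilobase of exon. It had 21.5, 17.5, 24.0 and 21.7 CPM in P9, P15, P22 and P38, 20.0 CPM in parental cells, and 18.2, 13.5, 19.04 and 20.7 CPM in W19, W33, W36 and W42. Of the P95H clones, 3 were above all WT clones, while P15 was below all WT clones except W33. AEBP2 gave a log2 difference of 0.25 (SE 0.16, interval -0.12 to 0.61, adjusted p = 0.572 by edgeR). Without W33 the difference was 0.13 (adjusted p = 0.692 by edgeR), without both W33 and P22 it was 0.07, and without P15 it was 0.33. Without P15 AEBP2 was the only member whose groups did not overlap, where 13.5% of all genes did not overlap and 6.56% did so with P95H higher. This count without 1 clone, like that for EZH2, was chosen after seeing the data.

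PHF19, a Polycomb-like protein that reads methylated lysine 36 and is abundant in proliferating cells, had 290, 318, 258 and 306 CPM in P9, P15, P22 and P38, 325 CPM in parental cells, and 309, 437, 308 and 296 CPM in W19, W33, W36 and W42. W33 was the highest library and P22 the lowest. PHF19 gave a log2 difference of -0.20 (SE 0.14, interval -0.51 to 0.11, adjusted p = 0.594 by edgeR), and without W33 it was -0.05.

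MTF2, the other Polycomb-like protein, which binds unmethylated CpG-rich DNA, had 49.7, 59.9, 80.0 and 84.5 CPM in P9, P15, P22 and P38, 73.2 CPM in parental cells, and 79.6, 57.4, 79.5 and 81.2 CPM in W19, W33, W36 and W42. P9 was the lowest library and P38 the highest, and W33 stood below the other WT clones, which lay at 80.1 ± 0.942 CPM (SD, n = 3). MTF2 gave a log2 difference of -0.12 (SE 0.19, interval -0.53 to 0.30, adjusted p = 0.826 by edgeR). It was -0.22 without W33, 0.0068 without P9, -0.06 without P15 and -0.23 without P38.

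**Figure D2:**
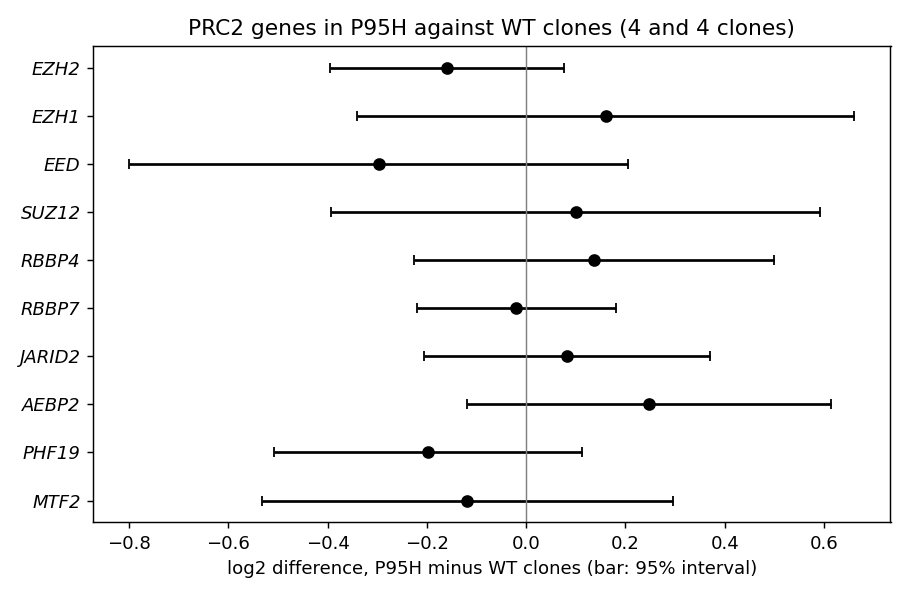
Log2 difference, P95H minus WT clones, of each PRC2 gene from edgeR (horizontal axis), with its 95% confidence interval. The interval of every member spans 0, from -0.80 to 0.21 for EED, which has one of the widest, to -0.22 to 0.18 for RBBP7, the narrowest.

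No member differed between the parental culture and the WT clones beyond the spread between clones. Its fitted log2 differences from the WT clones ran from -0.24 (JARID2) to 0.24 (RBBP4), and edgeR called 0 of the 10 members and 0% of all genes. At an unadjusted p under 0.05 edgeR gave 242 genes (1.33%), and DESeq2 called 4 genes (0.022%) at an adjusted p of 0.05, with 0 members. A single culture has no spread of its own and was assumed to vary like the clones.

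The largest differences of the members were between single clones and their own group, up to a log2 of -1.003 (SUZ12 in W33). The largest between P95H and WT clones was -0.30 (EED). A single library varies more than a group mean, and more single-clone comparisons were made. These sizes therefore cannot show whether clones differ more than the groups do. Each clone was compared with the other clones of its group in an edgeR model of its own over all 9 libraries, in which the single clone is assumed to vary like the rest. By edgeR W33 alone among the 8 clones had called members, 2 of 10, beside 13.5% of all genes (6.61% higher and 6.86% lower in W33). SUZ12 fell in W33, at 52.3 CPM against 97.4, 98.4 and 119 CPM in the other WT clones, with a log2 difference of -1.003 (SE 0.19, adjusted p = 0.0198 by edgeR, 4.11e-05 by DESeq2). PHF19 rose in W33, at 437 CPM against 309, 308 and 296 CPM in the other WT clones, with a log2 difference of 0.52 (SE 0.13, adjusted p = 0.0364 by edgeR, 0.00562 by DESeq2). The SUZ12 call was lost in edgeR when W36 or W42 was left out (adjusted p = 0.0535 and 0.0642), and the PHF19 call was lost when W19, W36 or W42 was left out (0.0821, 0.0915 and 0.109). It was also lost with no filter on low counts (0.0935).

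The other members in W33 were mostly below the rest of the WT clones without passing the test. The fitted differences were -0.56 for EZH1 (adjusted p = 0.301 by edgeR), -0.52 for AEBP2 (0.114), -0.48 for MTF2, -0.38 for RBBP4, -0.34 for JARID2, -0.24 for EZH2 and -0.22 for EED, while RBBP7 stood at 0.12. In all, 8 of the 10 members were below 0, with a median of -0.36 beside 0.01 over all genes. In the same clone the median difference of all genes went with exonic length: it was 0.12, 0.23, 0.10, -0.06 and -0.23 from the shortest to the longest of 5 equal length classes, and 9 of the 10 members lie in the 2 classes of longest genes. Between P95H and WT clones the medians of these classes were 0.0028, -0.05, -0.02, 0.03 and 0.08 in the same order. The part of gene length in the members' values was not tested in either comparison.

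**Figure D3:**
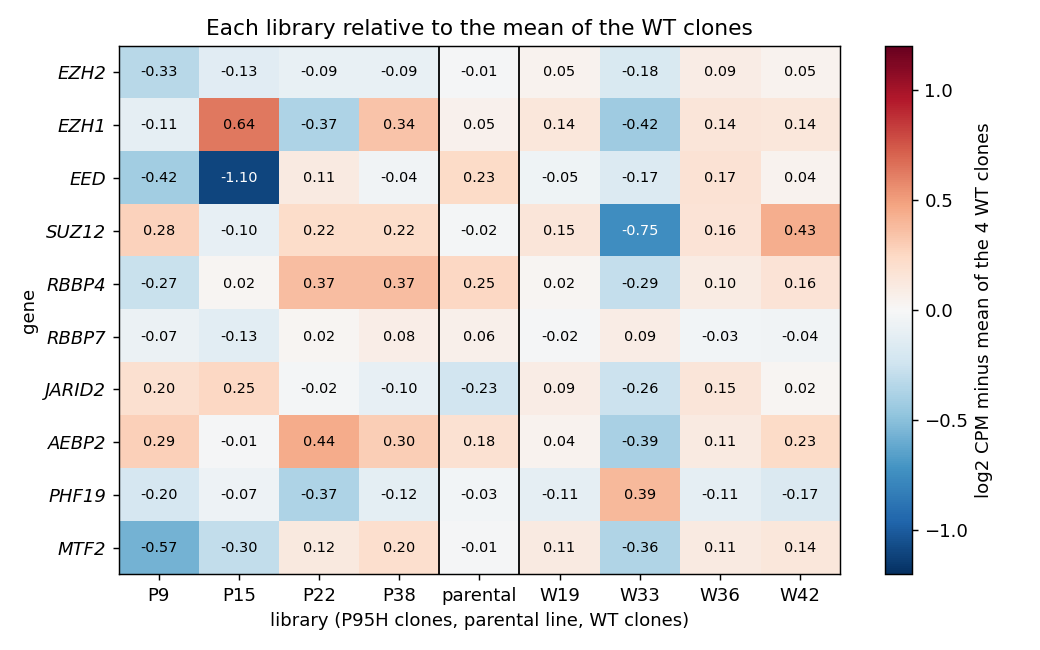
Deviation of each PRC2 gene (rows) in each library (columns, P95H clones, then parental, then WT clones) from the mean of the WT clones, as a log2 difference of CPM shown by colour and number. W33 is low for SUZ12 (-0.75) and high for PHF19 (0.39), and P15 is low for EED (-1.10). P9 is low for MTF2 (-0.57) and EED (-0.42), and less so for EZH2 (-0.33) and RBBP4 (-0.27).

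In P15, EED was at 27.2 CPM against 43.5, 63.0 and 56.5 CPM in the other P95H clones, below all of them. The EED level fitted in P15 was 0.500 of theirs (SE 0.24 on the log2 scale, unadjusted p = 0.00263) and did not pass over all genes with edgeR (adjusted p = 0.271), which called 0.0055% of genes in this clone. DESeq2 called EED (adjusted p = 0.0105) among 1.47% of genes. The genes beside EED on chromosome 11 were lower in P15 too: over the 15 nearest expressed genes on each side the median difference in P15 was -0.66, and 27 of 30 were below 0. Over 30 genes on each side the median was -0.61, with 54 of 60 below 0. EZH1 in P15 was 0.65 above the other P95H clones (adjusted p = 0.663 by edgeR).

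In P9, RBBP4 and MTF2, both on chromosome 1, were the lowest of the P95H clones. RBBP4 was at 279 CPM against 342, 434 and 434 CPM in the other P95H clones (log2 difference -0.53, unadjusted p = 0.0453, adjusted p = 1 by edgeR). MTF2 was at 49.7 CPM against 59.9, 80.0 and 84.5 CPM in the other P95H clones (-0.59, adjusted p = 1 by edgeR). The neighbours of both were low too, with a median of -0.46 at each locus and 30 of 30 neighbours of RBBP4 and 28 of 30 neighbours of MTF2 below 0. Neither copy number nor its part in these values was tested.

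**Figure D4:**
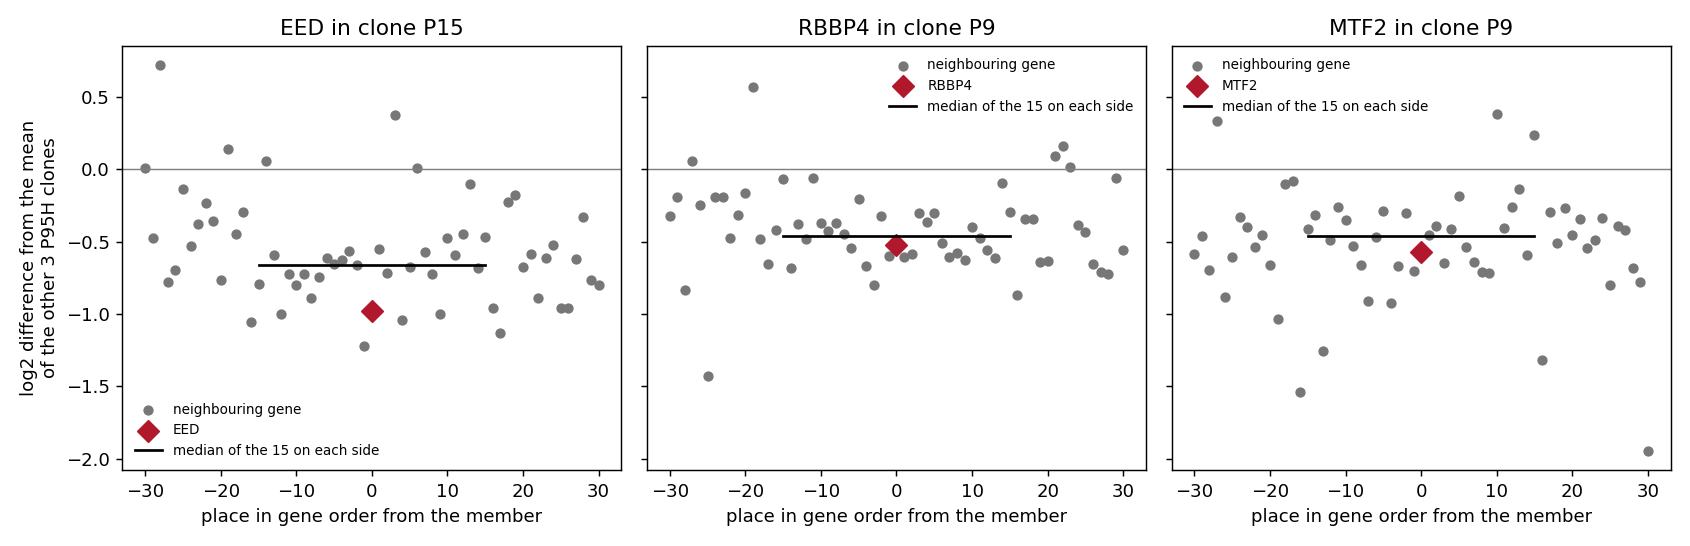
Log2 difference of CPM of EED in P15 (left) and of RBBP4 and MTF2 in P9 (middle and right) from the mean of the other 3 P95H clones (vertical axis), for the member (diamond) and the 30 nearest expressed genes on each side (points, horizontal axis by place in gene order). The line is the median of the 15 genes on each side, at -0.66 around EED and at -0.46 around both RBBP4 and MTF2, and EED itself lies at -0.98 on this scale.

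SUZ12 and PHF19 in W33 lay apart from the genes around them. The neighbours of SUZ12 had a median of -0.18 in W33 beside -1.003 for SUZ12 itself, and those of PHF19 had -0.15 beside 0.52 for PHF19. The neighbours of EZH2 stood at 0.30 beside -0.24 for EZH2. MTF2 in W33 stood at -0.48 with a neighbour median of -0.54, and 23 of 30 neighbours were below 0.

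In P22, edgeR called 0.352% of genes and 0 members. EZH1 was at 33.8 CPM against 40.5, 68.1 and 55.5 CPM in the other P95H clones (-0.69, adjusted p = 0.675), and EED was 0.57 above the other P95H clones. In W42, where 0.022% of genes were called, SUZ12 was 0.52 above the other WT clones without passing. P9, P38, W19 and W36 had 0 genes called by edgeR, with 722, 408, 77 and 93 genes at an unadjusted p under 0.05 and 40, 18, 0 and 2 called by DESeq2.

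Levels were compared between members only per kilobase of the exons of each gene joined over its transcripts (CPM per kb). In WT clones PHF19 led at 50.1 CPM per kb, followed by RBBP7 at 39.7, EZH2 at 38.2 and RBBP4 at 35.8. A second tier held SUZ12 at 14.0, MTF2 at 12.6, JARID2 at 10.04, EED at 8.33 and EZH1 at 6.34 CPM per kb, and AEBP2 was last at 2.71. In P95H clones the same genes stood at 43.5, 39.1, 34.1, 39.3, 15.01, 11.6, 10.6, 6.78, 7.08 and 3.22 CPM per kb in that order of genes. Over the 8 clones, neighbours in this order overlapped except at 2 steps: every clone had more RBBP4 than any had SUZ12, and every clone had more EZH1 than any had AEBP2. Long untranslated exons that K562 may not use lower these values, so the order depends on the annotation.

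The genes that work with or against PRC2 were read as lists, with 0 genes called by edgeR in either direction in any list. The median log2 difference over all genes tested was 0.01. The share of all genes above 0 was not taken, and the lists were not read without W33. A value of W33 away from the other WT clones moves the WT side of these differences. The remaining PRC2 partners gave 4 tested genes with a median log2 difference of 0.09, P95H minus WT. They were LCORL (-0.20), LCOR (0.18), the chromodomain protein CDYL (0.15) and the third Polycomb-like protein PHF1 (0.04). LCOR fell in W33 (-0.88, adjusted p = 0.0345 by edgeR).

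PRC1, the complex that ubiquitylates histone H2A and binds the PRC2 mark, gave 25 tested genes with a median of 0.08, of which 19 were above 0. Their median in W33 against the other WT clones was -0.21, beside 0.01 over all genes. CBX2, a chromodomain subunit that reads the PRC2 mark, was at 32.0 to 37.66 CPM in P95H clones and 38.8 to 49.5 CPM in WT clones, with no overlap (log2 difference -0.32, SE 0.11, adjusted p = 0.347 by edgeR). PCGF3, a subunit of a variant PRC1, was at 85.3 to 103 CPM in P95H clones and 77.4 to 83.4 CPM in WT clones (0.21, adjusted p = 0.446). These 2 of 25 genes without overlap compare with 8.48% of all genes. RYBP, another variant PRC1 subunit, and PHC1, a polyhomeotic protein, had differences of 0.62 and 0.38 with adjusted p of 0.359 and 0.400 by edgeR. In W33, 0 PRC1 genes rose and 3 of 25 fell, where 6.61% of all genes rose and 6.86% fell in that clone.

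The deubiquitylases that remove the PRC1 mark and their partners gave 13 tested genes with a median of 0.11, and 12 were above 0. The same genes had a median of -0.26 in W33 against the other WT clones, beside 0.01 over all genes. ASXL2, a cofactor of BAP1, had 0.40 (adjusted p = 0.494 by edgeR), the DNA-binding partner FOXK2 0.22 (0.528), USP21 0.20 (0.460) and USP22 0.11 (0.668). FOXK2 was among 2 genes of the list without overlap between P95H and WT clones, against 8.48% of all genes. In W33, 5 of the 13 fell and 0 rose, against 6.86% and 6.61% of all genes. Among the 5 were ASXL2 (-0.99, adjusted p = 0.0153 by edgeR) and FOXK2 (-0.52, adjusted p = 0.0253). As over all genes, the W33 calls of these lists rest on the full set of WT clones, since 0 genes of any kind were called without W36 or without W42.

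Other complexes that use RBBP4 and RBBP7, such as NuRD, SIN3, CAF-1 and the MuvB core, gave 29 tested genes with a median of -0.01. The histone acetyltransferase HAT1, which works with RBBP7, was at 188 ± 22.6 CPM in P95H clones and 245 ± 27.3 CPM in WT clones (SD, n = 4 each, log2 difference -0.38, adjusted p = 0.335 by edgeR). The deacetylase HDAC2 had -0.26 (0.398), the remodeller BPTF 0.31 (0.539) and the MuvB subunit LIN52 0.25 (0.531). LIN52 was the only gene of this list without overlap between P95H and WT clones, against 8.48% of all genes.

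Since most member promoters held an E2F-type element, the E2F-driven proliferation genes were set beside them. The list also holds repressors of E2F, so it does not measure E2F activity. The 21 tested genes had a median of 0.10 beside 0.01 over all genes tested, with 15 above 0. RB1 and RBL1, repressors of E2F, had 0.45 (adjusted p = 0.465 by edgeR) and 0.35 (0.441), and the helicase subunit MCM5 0.25 (0.583). In W33 against the other WT clones the list had a median of -0.18, while MCM5 stood at 0.56 without a call. In W33, 5 of the 21 fell and 0 rose, against 6.86% and 6.61% of all genes, and the 5 included RB1 (-0.96, adjusted p = 0.0308 by edgeR) and RBL1 (-0.63, adjusted p = 0.0392).

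Most developmental regulators on a list of genes that PRC2 commonly silences had low counts. Of 36 genes on that list 26 were under 1 CPM in every library, 8 of them without a count, and 9 passed the filter, with a median of 0.02. The summed level of the list was 81.6 to 123 CPM in P95H clones, 111 CPM in parental cells and 101 to 119 CPM in WT clones. PAX9 was at 9.16 ± 0.726 CPM in P95H clones and 7.14 ± 0.907 CPM in WT clones (SD, n = 4 each), with no overlap (0.36, adjusted p = 0.409 by edgeR). Over all genes 8.48% did not overlap. PAX8 had 0.39 (0.545), the forkhead gene FOXC1 -0.19 (0.894) and CDKN1C, a cyclin-dependent kinase inhibitor, -0.59 (0.617). In W33 against the other WT clones the list had a median of -0.06. PAX8 stood at -0.99 there (2.66 CPM, the lowest WT clone), FOXC1 at -0.06, PAX9 at 0.08 and CDKN1C at 0.75.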

How the data were processed

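Per the labels' protocols, RNA came from a miRNeasy kit, was poly(A) selected, made into TruSeq RNA libraries and sequenced on a HiSeq2000. The values the authors deposited are unnormalized read counts, 1 per Ensembl gene ID. Tools named by the submitters' processing notes are HTSeq 0.6.1p1, TopHat2 2.0.4 and bcl2fastq, with build GRCh37. Strand and overlap settings of the counting were not found there. Between 43.3% and 44.2% of counted reads fell in genes, and the 5 summary lines of each table were left out of library sizes. The floor of 3 counts covers counting error only, and the 95% intervals of fitted differences come from the spread between clones.

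Genes were filtered with filterByExpr over the 8 clones, scaled by TMM and tested with edgeR 4.0.16 (quasi-likelihood, robust) in R 4.3.3, with Benjamini-Hochberg adjustment over all 18173 genes at a threshold of 0.05. P95H and WT clones were compared in a fit of those 8 libraries, and parental cells and each single clone in a separate fit of all 9. DESeq2 1.42.0, limma-voom 3.58.1 with quality weights, no filter and leaving out each clone were alternatives. No 2 libraries of a group agreed within sampling noise. Neighbours were the 15 nearest genes on each side with a mean of at least 5 CPM. Symbols came from GENCODE release 29 and, for IDs without one there, from a name table. Of 63677 IDs 52526 were paired with a symbol, and 184 of 188 list entries were matched. Exonic lengths came from GENCODE release 29 (GRCh38), not from the build of the counts.

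All members, up to 4 genes of each other list with the smallest unadjusted p in P95H against WT clones and a mean of at least 1 CPM, any called gene of a list in that comparison, and SRSF2 are named, except for 2 list genes that are not reported here. HBG2, GATA1, MS4A1, PECAM1, SYNC and the pseudogene copies were named after their values were seen. The members and lists were chosen with earlier results of these data known.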

Additional observations from a re-analysis of the deposited data

Results flagged for a closer look

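In each group of 4 clones the highest or the lowest value of a member was set against the other 3 by the gap to the nearest, divided by the whole range. Of 20 such groups 5 were marked as holding a clone far from the others, and 4 of the 5 concern W33. Chance marks about 1 in 20 independent groups, but the WT groups all hold the same W33 library and are not independent. The share marked over all genes was not taken, so the count does not set the members apart from other genes. EZH1 in WT clones was lowest in W33, at 32.6 CPM against 48.2 to 48.4 CPM in the others. RBBP7 in WT clones was highest in W33, at 312 CPM against 286 to 290 CPM in the others. PHF19 in WT clones was highest in W33, at 437 CPM against 296 to 309 CPM in the others, and MTF2 was lowest there, at 57.4 CPM against 79.5 to 81.2 CPM. SUZ12 in P95H clones was lowest in P15, at 81.8 CPM against 102 to 106 CPM in the others.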

How the results depend on the processing

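No alternative called a member in P95H against WT clones. EZH2, EED and AEBP2 kept their direction under all 17 alternatives run, with log2 differences of EZH2 from -0.24 to -0.11 (adjusted p from 0.167 to 0.788). The other members changed sign under at least 1. With limma-voom, EZH1 had -0.0086, RBBP7 0.013 and JARID2 -0.036. With W33 and P22 both left out, SUZ12 had -0.11, RBBP4 -0.033 and PHF19 0.0054. Leaving out each clone in turn gave -0.034 to 0.302 for EZH1, -0.093 to 0.248 for SUZ12, -0.054 to 0.013 for RBBP7 and -0.235 to 0.0068 for MTF2. It left 0 to 1 members and 1844 to 2647 genes without overlap.

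The count of called genes in P95H against WT clones was 2 with no filter, 5 without W33 and P22, 34 with limma-voom and 261 with DESeq2, beside 0. In parental against WT it was 5 with no filter and 4 with DESeq2. With no filter, P15 had 25 genes, P22 249, P38 1 and W19 1, and W33 had 1 member in place of 2. DESeq2 called 40 genes in P9, 267 in P15 with 1 member, 436 in P22, 18 in P38 and 2 in W36. Leaving out each of the other clones gave 15 to 30 genes in P22, 0 to 682 genes in W33 and 0 to 1 members in W33. The cause was not tested. Differences of single libraries not given here numbered 71, and 30 of these changed sign under some alternative, each at a size of at most 0.158, with no call gained or lost.

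No paired analysis was possible because the clone numbers of the groups are not shared. The intervals of the members, from -0.22 to 0.18 for RBBP7 to -0.80 to 0.21 for EED, give the precision that 4 clones a group allowed.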

Other observations

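Genes that act against the PRC2 mark, the lysine 27 demethylases and the COMPASS methyltransferases of lysine 4, gave 12 tested genes with a median log2 difference of 0.09, P95H minus WT clones, and 0 calls by edgeR. KMT2C, a lysine 4 methyltransferase of enhancers, was at 74.2 to 101 CPM in P95H clones and 39.8 to 79.4 CPM in WT clones (log2 difference 0.41, SE 0.20, adjusted p = 0.464 by edgeR). Its partner NCOA6 was at 48.1 to 54.7 CPM in P95H clones and 38.4 to 47.7 CPM in WT clones (0.22, adjusted p = 0.452 by edgeR). NCOA6 was the only gene of the list without overlap, where 8.48% of all genes did not overlap. DPY30, a shared core subunit, had -0.18 (0.519) and the scaffold MEN1 -0.27 (0.551). In W33, 1 gene of the list rose and 4 fell, where 6.61% of all genes rose and 6.86% fell. One of the 4 was KMT2C (-0.86, adjusted p = 0.0296 by edgeR).

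Among the erythroid genes that mark K562, 8 of 10 were above 0 with a median of 0.53. Their median in W33 against the other WT clones was 0.79. The embryonic globin HBE1 ranged from 63.3 to 1382 CPM in P95H clones and from 59.0 to 165 CPM in WT clones (log2 difference 2.55, SE 0.81, adjusted p = 0.334 by edgeR). LMO2, a transcriptional cofactor, had 0.50 (adjusted p = 0.370) and the fetal globin HBG1 0.60 (0.489). Among markers of other cell types, 8 of the 10 tested were below 0 with a median of -0.27. These had a median of 0.68 in W33 against the other WT clones. KRT8 was at 193 to 417 CPM in P95H clones and 444 to 753 CPM in WT clones (-0.87, adjusted p = 0.318 by edgeR). Its groups did not overlap, nor did those of 8.48% of all genes. KRT18 had -0.64 (0.347), KRT19 -0.25 (0.611) and LYZ 0.42 (0.669).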
